A study of Mus musculus with 16 samples.

Results

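Foxa1 binding was compared between an early and a late day in mouse embryonic fibroblasts infected with Foxa1. The Foxa1 peak list of day 2 was set against that of day 30. A peak is an interval in which the authors' caller found more immunoprecipitated DNA than background. The day 2 list held 442 peaks and the day 30 list 3331, so that 3773 of the 4839 peaks in the 8 deposited lists of the series belong to this comparison. Every peak was placed in a class by overlap with the other day's list. A day 2 peak was called kept when it shared 1 bp or more with a day 30 peak and lost otherwise, and a day 30 peak was called kept when it shared 1 bp or more with a day 2 peak and gained otherwise. The classes describe membership of lists and not occupancy: read depth is unknown, and a site absent from a list may have fallen short of the caller's threshold.

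Both cultures were fibroblasts of the C57BL/6 strain, prepared from embryos at 13.5 days post coitum and infected with Foxa1 alone, and chromatin was precipitated with a Foxa1 antibody. There was 1 ChIP sample on day 2 and 1 on day 30, each labelled as MEF, and an input sample of each day that was not analysed here. The labels' growth text also mentions the culture of induced hepatocyte-like cells, without saying whether it applies to the day 30 culture. The vector, its promoter, and the event from which days were counted are not given in the sources used here. With 1 sample per day there is no error between samples, so no test between days was possible. Intervals given for a share are exact Clopper-Pearson 95% intervals over peaks, and intervals of a median come from the binomial order of the peaks. Both cover counting error only, and neighbouring peaks are not independent. Where a count is 0, the limit printed beside it is 3 counts of the total, while the plotted interval is the exact one.

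Foxa1 is a forkhead protein, whose winged-helix domain contacts the DNA major groove. It is known as a pioneer factor, able to bind its sites on nucleosomal DNA, and it acts with Foxa2 in the formation of the liver and other endoderm organs. Together with Hnf4a, a nuclear receptor of hepatocytes, Foxa proteins are used to convert fibroblasts towards hepatocyte-like cells. Positions are given 1-based on mm9. No genome of that build was at hand, so peaks were not assigned to genes and no sequence is shown.

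Most early Foxa1 sites were listed again late, and most late sites had not been listed early. Of the 442 day 2 peaks, 312 were kept (70.6%, interval 66.1 to 74.8%) and 130 were lost. Of the 3331 day 30 peaks, 294 were kept (8.83%, 7.88 to 9.84%) and 3037 were gained. The day 2 list is far shorter, and only 1 of its 442 peaks touched 2 day 30 peaks. A gained majority was thus set by the lengths of the lists. In sequence length, day 30 peaks covered 67.2% of the bases in day 2 peaks, and day 2 peaks covered 6.11% of the bases in day 30 peaks. The gained peaks made up 422.6 kb, against 73.97 kb for the kept peaks of day 30, 34.4 kb for the kept peaks of day 2 and 10.8 kb for the lost ones. The share of day 2 peaks kept was 39.1% when the day 30 list was reduced to its 442 highest-scoring peaks, and 35.7% of those 442 were then kept peaks. That reduction changed the length of the list and the scores in it together.

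The overlap rule sets that paired peaks lie on each other and bounds how far apart their centres can be, so the geometry of the kept sites is a description. The 312 and 294 kept peaks formed 313 overlapping pairs, of which 278 joined a single day 2 peak to a single day 30 peak. A further 11 day 30 peaks held 2 day 2 peaks and 4 held 3, while only 1 day 2 peak touched 2 day 30 peaks. The centres of paired peaks were a median of 38 bp apart, with quartiles of 16 and 80.5 bp, and 1 pair was more than 500 bp apart. In 204 of the 313 pairs (65.2%) the day 2 peak lay wholly inside the day 30 peak, and in 3 pairs the reverse held. The classes were seldom decided by a few bases. The smallest overlap of a kept pair was 3 bp and 4 pairs shared fewer than 10 bp, while 7 lost peaks lay within 20 bp of a day 30 peak.

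Kept peaks were wider than the rest of their own list on both days. On day 2, the kept peaks had a median width of 86.5 bp (interval 82 to 92) and the lost peaks 74 bp (68 to 78). The quartiles were 64.75 and 116 bp for kept peaks and 58 and 95.75 bp for lost ones. On day 30 the difference was larger: kept peaks had a median of 189 bp (173 to 200) and gained peaks 116 bp (114 to 118), with quartiles of 128 and 294 bp against 90 and 159 bp. Peaks wider than 200 bp made up 43.5% of the kept and 13.8% of the gained peaks on day 30. They made up 4.81% of the kept and 1.54% of the lost peaks on day 2. A wide peak has more room to overlap another, so the overlap rule itself favours wide peaks. When peaks were instead matched by centres within 500 bp of each other, the kept peaks of day 30 had a median of 163 bp.

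**Figure D1:**
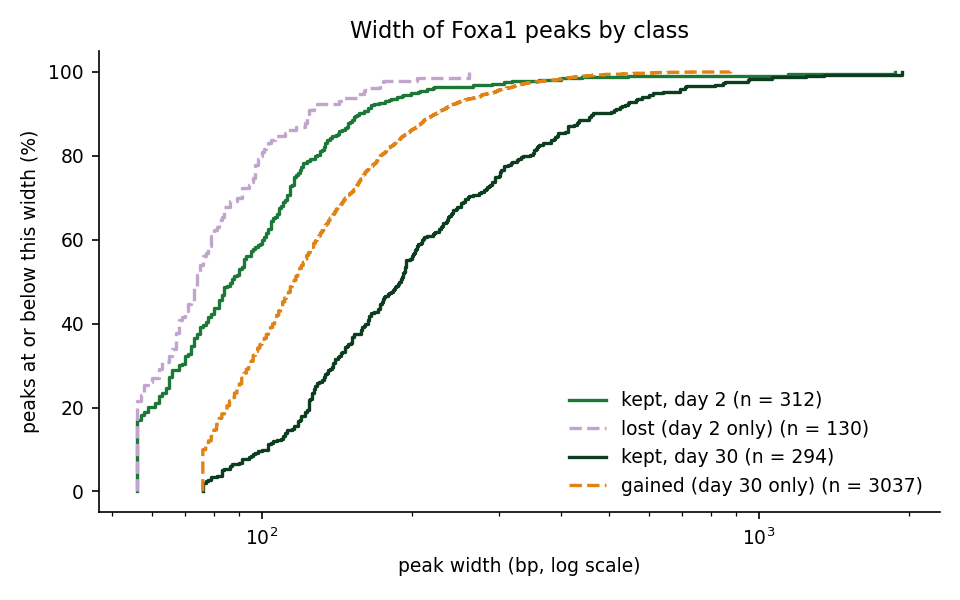
Cumulative share of peaks (vertical axis, percent) at or below each peak width (horizontal axis, bp, log scale) for the kept and lost peaks of day 2 and the kept and gained peaks of day 30. Each list starts at its own shortest width, 56 bp on day 2 and 76 bp on day 30, and within each list the kept peaks lie to the right, with medians of 86.5 against 74 bp and 189 against 116 bp.

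Widths of the 2 lists are not on one footing, because each list stops at a shortest width of its own. That width was 56 bp on day 2 and 76 bp on day 30, a ratio of 1.36. On day 2, 17.3% of the kept and 22.3% of the lost peaks had exactly the shortest width. On day 30 these shares were 2.38% of the kept and 9.98% of the gained peaks. Over the 278 single pairs the day 30 peak was the wider in 250 (89.9%), with a median of 181 bp against 85.5 bp and a median ratio of 1.98 (quartiles 1.42 and 3.15). With each width divided by the shortest of its list, the median ratio was 1.46 and the day 30 peak was the wider in 217 of 278. Width at a site on one day said little of its width on the other: Spearman's rho over the 278 pairs was 0.26 for width and 0.25 for score. The pairs share their libraries, and these values are descriptions only.

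Narrow and low-scoring peaks were kept less often than the widest and highest-scoring ones in both lists, but along different paths. The score is the authors' own value per peak, read as −log10 of a p-value, and ranks peaks only within a list. Among day 2 peaks under 100 bp, 185 of 290 were kept (63.8%, 58.0 to 69.3%), against 90 of 108 (83.3%, 74.9 to 89.8%) from 100 to under 150 bp. Of the few wider ones, 22 of 27 were kept below 200 bp and 7 of 9 below 300 bp, and all 8 of those at 300 bp or more were kept. Among day 30 peaks under 100 bp, 29 of 1094 were kept (2.65%, 1.78 to 3.78%), and 72 of 205 (35.1%, 28.6 to 42.1%) at 300 bp or more. Tied scores make score groups unequal in size, with 71 to 113 peaks on day 2 and 488 to 828 on day 30. By score, in 5 groups from lowest to highest, the kept share of day 2 peaks was 62.0%, 62.0%, 62.1%, 81.7% and 83.2%, a step between the third and the fourth group. For day 30 peaks it was 2.05%, 2.42%, 5.73%, 5.83% and 26.8%, so that the increase lay almost entirely in the highest group. Even there 513 of 701 peaks were gained. Kept peaks of day 30 had the larger median width in each of the 5 score groups, from 124.5 against 106.5 bp in the lowest to 225 against 160 bp in the highest. On day 2 this held in 4 of 5 groups, and in the fourth the medians were 79.5 bp for kept and 86 bp for lost peaks.

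**Figure D2:**
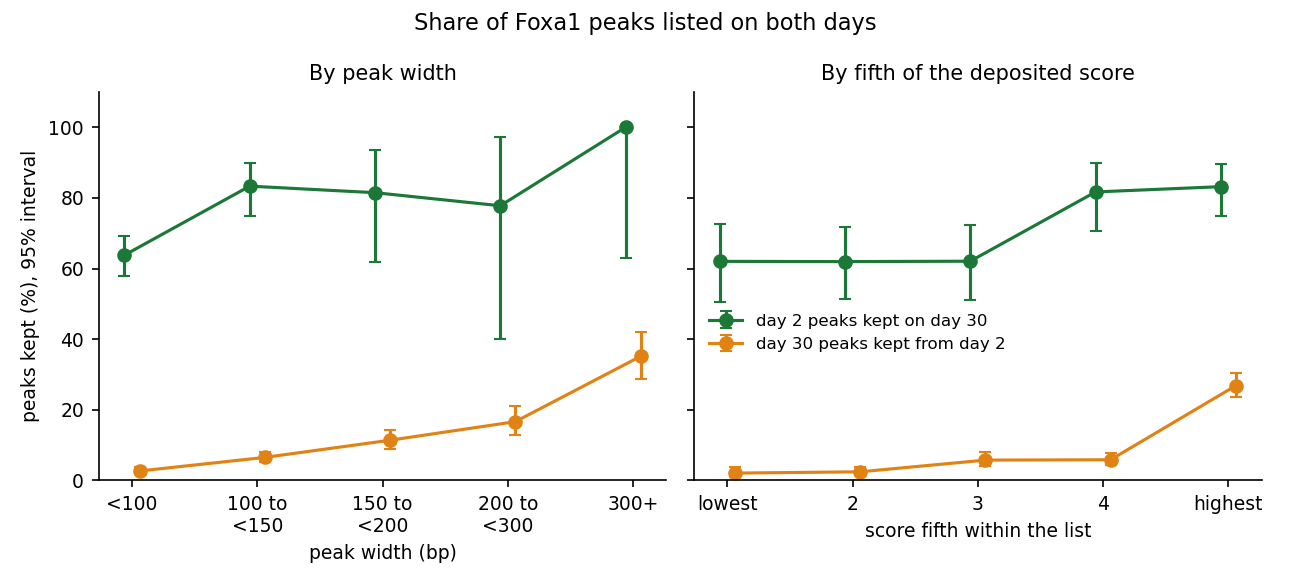
Share of peaks listed on both days (vertical axis, percent, with exact 95% intervals that cover counting error only) by peak width (left, bp) and by score group within the list (right, 5 groups from lowest to highest). Day 2 shares stay between 62.0% and 83.2% over the score groups, while day 30 shares stay below 6% except in the highest group, at 26.8%.

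The strongest and widest kept peaks were largely the same sites. The highest day 2 score, 80.2, belonged to a peak on chromosome 10 (86307319 to 86309196) that was 1878 bp wide, the widest of its list. Its partner on day 30 (86307389 to 86309322) was 1934 bp wide, the widest of that list, with a score of 78.3. A peak on chromosome 17 (35848565 to 35849005) had the next day 2 score, 67.6, at 441 bp, and its day 30 partner was 711 bp wide with the highest score of that list, 107.1. On chromosome 6 a day 2 peak of 1145 bp (113960851 to 113961995, score 46.1) had a narrower partner on day 30, of 953 bp and with a score of 51.6. No other day 2 peak lay within 10824 kb of it. A day 30 peak on chromosome 4 (3733814 to 3735165, 1352 bp, score 59.8) held 3 day 2 peaks, the widest of them 544 bp. The third-widest kept peak of day 30, on chromosome 14 (100045085 to 100046329, 1245 bp, score 25.6), held 2 day 2 peaks of at most 84 bp.

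Lost peaks at the top of the day 2 list were far weaker and narrower than these. The highest-scoring lost peak, on chromosome 1 (72735513 to 72735635, 123 bp), had a score of 19.4 and lay 9784 bp from the nearest day 30 peak. The next, on chromosome 10 (10948830 to 10949034, 205 bp, score 16.4), was 499.4 kb from one, and a 62 bp peak on chromosome 15 (24499200 to 24499261, score 15.5) was 1205 kb from one. The widest lost peak, 261 bp on chromosome 11 (88830188 to 88830448, score 10.6), was 184.8 kb away. The lost peak with the third-largest width, 175 bp on chromosome 10 (86309324 to 86309498, score 14.9), ended up outside the kept class by 1 bp: it stood beside the strongest site of the day 2 list, and the 1934 bp day 30 peak there stopped just short of it. The other lost peaks nearest to a late one were on chromosome 12 (58418669 to 58418792, 3 bp away) and chromosome 10 (24792818 to 24792908, 4 bp away). None of the lost peaks named here overlapped a list of Foxa2, Foxa3 or Hnf4a.

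The 3 highest-scoring gained peaks lay 779.0 kb or more from any Foxa1 day 2 peak. Such distances are common among gained peaks, whose median was 1727 kb. The highest-scoring one, on chromosome 7 (108471897 to 108472057, 161 bp), had a score of 40.1 and lay 9470 kb from the nearest day 2 peak. The next were on chromosome 13 (9013782 to 9014095, 314 bp, score 34.3), at 984.5 kb, and on chromosome 2 (152223824 to 152223959, 136 bp, score 34.1), at 779.0 kb. The site on chromosome 2 was also in both Foxa2 lists, of day 2 and of day 30, and had thus been listed early for another Foxa protein. The widest gained peaks were on chromosome 2 (108356650 to 108357526, 877 bp), chromosome 12 (15327521 to 15328251, 731 bp) and chromosome 13 (60274863 to 60275560, 698 bp). The last of these was also in the Foxa3 day 30 list. Their scores, 19.2, 17.9 and 17.5, lay near the median of the kept day 30 peaks, 18.5, and above that of the gained peaks, 10.2. As a rank within the list, the median kept peak of day 30 stood at the 88.7th percentile and the median gained peak at the 46.8th. On day 2 the median kept peak stood at the 55.3rd and the median lost peak at the 40.4th.

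In every class some peaks had another peak of the list within 500 bp, and most had none within 20 kb. The nearest one stood 1000 to 20000 bp away for 3.54% of kept day 2 and 6.92% of lost peaks. The day 30 shares were 13.3% of kept and 13.6% of gained peaks. Distances were measured from edge to edge. On day 2, 43 of 311 kept peaks (13.8%, 10.2 to 18.2%) had another day 2 peak within 500 bp, and only 1 more had one within 1000 bp. The single day 2 peak on chromosome X has no neighbour and was left out. Of the lost peaks, 10 of 130 (7.69%, 3.75 to 13.7%) had one within 500 bp. On day 30, 70 of 294 kept peaks (23.8%, 19.1 to 29.1%) and 536 of 3037 gained peaks (17.6%, 16.3 to 19.1%) had another day 30 peak within 500 bp. The smallest gaps were 50 bp on day 30 and 54 bp on day 2. The median distance to the nearest other peak of the list was 810.1 kb for kept and 1325 kb for lost peaks on day 2, with overlapping intervals (531.2 to 1026 kb and 848.0 to 2018 kb). On day 30 it was 63.3 kb for kept and 74.7 kb for gained peaks (43.5 to 91.0 kb and 67.5 to 85.4 kb, also overlapping). At the stricter score threshold the order of kept and lost peaks turned, with medians of 5886 and 4491 kb. A longer list has closer peaks. With the day 30 list at the length of the day 2 list the medians were 1122 kb for kept and 1537 kb for gained peaks, of the same order as on day 2.

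Most gained peaks lay far from any early site. Their median distance to the nearest day 2 peak was 1727 kb, with quartiles of 430.9 and 4138 kb. Day 2 peaks are few and stood a median of 875.8 kb from the nearest other day 2 peak. Long distances to them thus follow in part from the short list. Of the 3037, 98 (3.23%, 2.63 to 3.92%) lay within 500 bp of a day 2 peak, 197 (6.49%) within 20 kb and 1139 (37.5%) within 1 Mb. A kept day 30 peak was within 500 bp of 83 of them (2.73%). Lost peaks were much closer to the other day's list, which is 7.54 times as long: their median distance to a day 30 peak was 126.8 kb, and 117 of 130 (90%) had one within 1 Mb. Of the lost peaks, 21 (16.2%, 10.3 to 23.6%) lay within 500 bp of a day 30 peak. For 15 of these 21 the nearest late peak was itself gained, and for 6 it was kept. The other end held 73 lost peaks (56.2%) with no day 30 peak within 100 kb. Counting lost peaks within 500 bp as re-listed gave 333 of 442 day 2 peaks (75.3%).

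**Figure D3:**
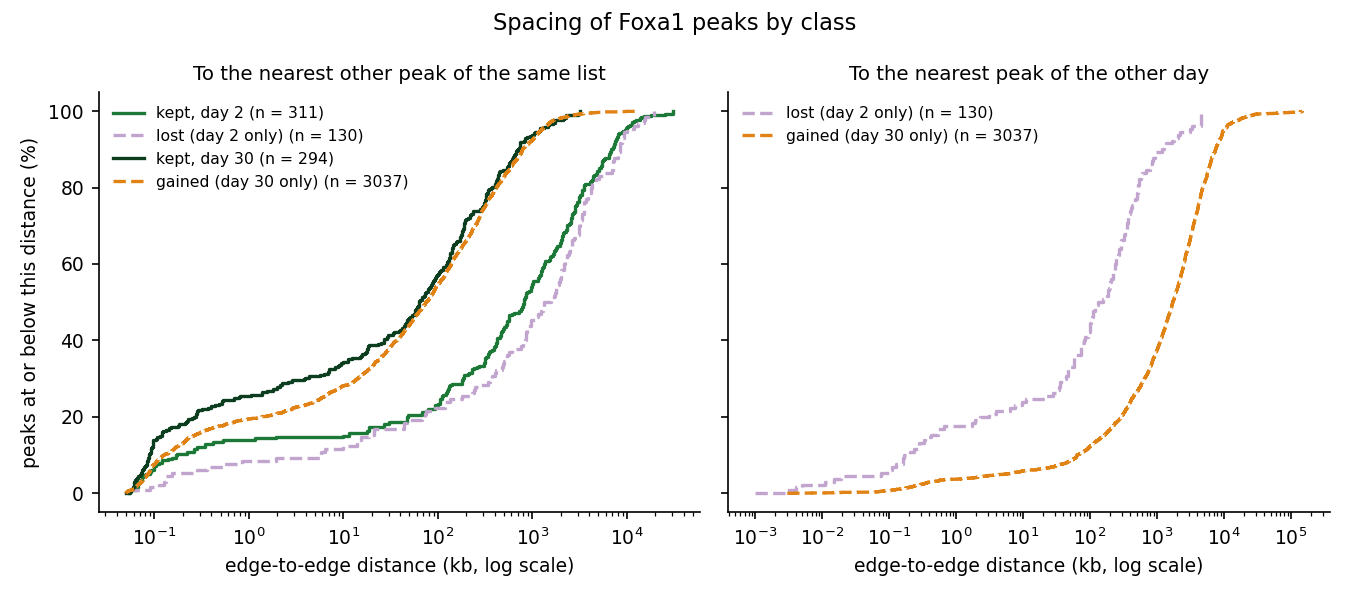
Cumulative share of peaks (vertical axis, percent) by edge-to-edge distance (horizontal axis, kb, log scale) to the nearest other peak of the same list (left) and to the nearest peak of the other day (right, lost and gained peaks only). On the left a first rise below 0.5 kb is followed by a slower stretch in each class. On the right the lost peaks, with a median of 126.8 kb, lie left of the gained ones, with 1727 kb. Lost peaks are measured there to a list of 3331 peaks and gained ones to a list of 442.

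Lost sites had somewhat fewer late peaks in their wider surroundings than the other classes, with overlapping intervals of the median. Day 30 peaks with a centre between 2 kb and 1 Mb away numbered a mean of 4.57 around kept day 2 peaks (median 4, interval 3 to 4) and 3.45 around lost ones (median 3, 2 to 4). Around gained peaks the mean was 4.32, and around kept day 30 peaks 4.54. Day 2 peaks in the same range numbered a mean of 0.776 around kept and 0.692 around lost day 2 peaks. Around gained peaks they numbered 0.545, with a median of 0.

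Local clustering was described by chaining peaks of both lists over gaps of up to 20 kb. This gave 2764 chains, of which 2105 were single peaks and 308 held peaks of both days. Of the 399 chains with a day 2 peak, 77.2% thus held a day 30 peak. A total of 2365 chains were made of gained peaks alone and 91 of lost peaks alone. Kept and gained peaks stood together in 103 chains, and in 22 a lost peak stood with a gained one and no kept one. Of the gained peaks, 1005 (33.1%, 31.4 to 34.8%) shared a chain with another day 30 peak, and of the kept ones 115 (39.1%, 33.5 to 45.0%). For chains of 3 or more day 30 peaks the shares were 13.2% and 15.0%. On day 2, 55 kept peaks (17.6%, 13.6 to 22.3%) and 21 lost peaks (16.2%, 10.3 to 23.6%) shared a chain with another day 2 peak. The direction between kept and lost peaks did not hold across settings: it turned when peaks within 500 bp were merged first, to 4.45% against 9.17%, and at a stricter score threshold. With the day 30 list reduced to 442 peaks only 3.16% of its kept and 3.87% of its gained peaks were in such chains, below both day 2 shares. The selections are unlike, since the reduced list holds only top scores and the day 2 list was left whole. At the stricter score threshold the day 2 shares were 7.29% for kept and 9.38% for lost peaks.

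Within the day 30 list alone the chains were short. It fell into 2211 single peaks, 337 pairs, 81 chains of 3 and 44 longer ones, and the day 2 list into 366 single peaks, 25 pairs, 6 chains of 3 and 2 of 4. The largest chains of both lists together held 9 gained peaks each and no day 2 peak. One spanned 22.3 kb on chromosome 7 (128954018 to 128976271), with peaks of 80 to 276 bp, and the other 20.3 kb on chromosome 9 (61636830 to 61657139), with peaks of 76 to 413 bp. Another 6 chains tied at 7 peaks, and all of them held kept sites. Chain size counts peaks of both lists. A kept site thus adds at least 2 peaks, and the ranking itself favours chains that hold one. The tightest, on chromosome 1 (138835792 to 138836820), packed 4 kept day 2 peaks, 2 kept day 30 peaks and 1 gained peak into 1029 bp, with a day 30 peak as wide as 709 bp. A second chain on chromosome 1 (109611126 to 109612416) was built differently, with 6 day 30 peaks of 80 to 125 bp in 1291 bp, of which 5 were gained, separated by a median of 112 bp. On chromosome 14 (60425762 to 60428856) and chromosome 5 (99636383 to 99666916), 5 gained peaks likewise stood with 1 kept site. The chain on chromosome 8 (14404858 to 14406785) held 3 gained peaks with 2 kept sites, and that on chromosome 12 (58417170 to 58418792) held 2 gained peaks, 2 kept sites and 1 of the lost peaks described above.

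Gained peaks were spread over the autosomes roughly by their length, and lost peaks, which are few, less evenly. Chromosome 7, of 152.5 Mb, held 3 lost peaks, and chromosome 16, of 97.98 Mb, held 7. No peak lay on the Y chromosome in either list. The end of the last peak on a chromosome in any of the 8 lists stood in for its length. Day 30 peaks ranged from 1.16 per Mb on chromosome 15 to 1.69 on chromosome 10, with a median of 1.29 over 19 autosomes. Day 2 peaks ranged more widely, from 0.0872 per Mb on chromosome 15, with 9 peaks, to 0.273 on chromosome 10, with 35. Chromosome 10 was thus the densest and chromosome 15 the sparsest autosome on both days. Across the 19 autosomes, counts of gained peaks followed length with Pearson's r of 0.93 and Spearman's rho of 0.92, and counts of day 2 peaks with 0.79 and 0.75. These are descriptions over chromosomes that share 1 library per day.

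The share kept varied from one autosome to the next, with intervals too wide to show whether the autosomes differ or are alike. For day 2 peaks it ran from 53.3% on chromosome 16 (8 of 15) to 81.2% on chromosome 7 (13 of 16), with a median of 67.9%. For day 30 peaks it ran from 4.17% on chromosome 15 (5 of 120) to 11.6% on chromosome 13 (20 of 172), with a median of 8.77%. Per chromosome the intervals are wide. That of chromosome 16 ran from 26.6 to 78.7% and that of chromosome 7 from 54.4 to 96.0%, and both include the 70.6% of the whole list. Chromosome X stood apart in every class. It carried 0.168 gained peaks per Mb against 1.22 on the autosomes together, 28 of 3037 peaks (0.922%, 0.613 to 1.33%), although it makes up 6.35% of the length. It held 1 kept site, listed once on each day, and none of the 130 lost peaks, which allows a share of up to 2.31%. The labels do not give the sex of the embryos.

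**Figure D4:**
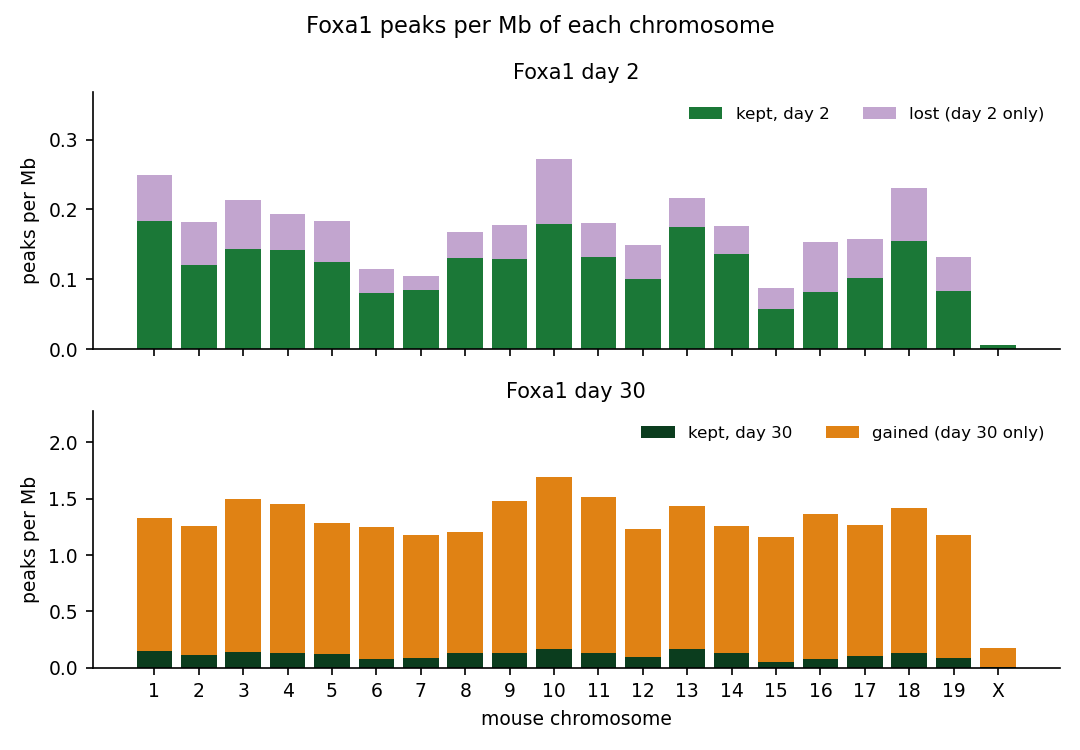
Foxa1 peaks per Mb (vertical axis) on each mouse chromosome (horizontal axis) on day 2 (top, kept and lost peaks stacked) and on day 30 (bottom, kept and gained peaks stacked); the vertical scales differ. Chromosome 10 is the highest and chromosome 15 the lowest autosome in both panels, at 0.273 and 0.0872 peaks per Mb on day 2, and chromosome X is near the baseline.

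Along the chromosomes the classes had shares close to each other. Mouse chromosomes have their centromere at the end where positions start. With each chromosome cut into 3 equal lengths, the segment nearest the start held 27.6% of the kept day 2 peaks, 32.3% of the lost and 27.5% of the gained ones. The segment at the far end held 39.7%, 40% and 36.6%. The interval for lost peaks in the segment nearest the start, 24.4 to 41.1%, includes the value of each other class.

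Kept and lost sites also differed in their presence in the late lists of the other Foxa proteins, a feature tied to the overlap rule. In the Foxa1 day 30 list, 150 peaks overlapped the Foxa2 day 30 list, which has 174 peaks. Another comparison gave 189 that overlapped the Foxa3 day 30 list, which has 265. A lost peak lies outside the Foxa1 day 30 list by definition, which by itself lowers its share in these lists. Those lists come from other cultures, infected with Foxa2 or with Foxa3 and precipitated with the matching antibody. Of the kept day 2 peaks, 52 (16.7%, 12.7 to 21.3%) overlapped the Foxa2 list of day 30, against 2 of the lost peaks (1.54%, 0.187 to 5.45%). For the Foxa3 list of day 30 the counts were 58 of 312 (18.6%, 14.4 to 23.4%) and 0 of 130, which allows up to 2.31%. In at least 1 of these 2 lists were 91 kept peaks (29.2%, 24.2 to 34.6%) and 2 lost ones. The intervals of kept and lost peaks do not overlap in any of these 3 comparisons, but the rule favours that outcome, so it is a description only. Among the narrow day 2 peaks, under 100 bp, the counts were 45 of 185 kept peaks (24.3%) and 2 of 105 lost ones (1.90%).

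On day 30 kept peaks also overlapped the late Foxa2 or Foxa3 list more often than gained ones, mostly among the highest-scoring peaks. Of the kept peaks, 96 of 294 (32.7%, 27.3 to 38.3%) overlapped the late Foxa2 or Foxa3 list, and of the gained peaks 205 of 3037 (6.75%, 5.88 to 7.70%). Sites in both late lists made up 7.48% of the kept and 0.527% of the gained peaks. By score, in the highest score group the shares were 48.4% of 188 kept peaks and 22.6% of 513 gained ones, and in the group below it 6.98% of 43 and 6.47% of 695, so that the shares stood apart in the highest group and were close in the group below. The highest group held 91 of the 96 kept overlaps. In the middle group the shares were 6.06% of 33 and 4.05% of 543. In both groups below that no kept peak overlapped, of 10 and of 20, against 1.67 and 1.73% of the gained ones. By width, the share was higher for kept than for gained peaks in every group. It was 6.90% of 29 against 1.69% of 1065 under 100 bp, and 59.7% of 72 against 30.8% of 133 at 300 bp or more. In number, the gained peaks held more of the shared late sites than the kept ones, 205 against 96.

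The early lists of the other factors are short and gave small counts. The Foxa2 list of day 2 overlapped 9 kept day 2 peaks (2.88%) and no lost one. It also overlapped 9 of 3037 gained peaks (0.296%), sites listed early for Foxa2 and late for Foxa1, against 9 of 294 kept day 30 peaks (3.06%). The Foxa3 list of day 2 turned the pattern round, with 5 of 130 lost peaks (3.85%, 1.26 to 8.75%) and 2 of 312 kept ones (0.641%, 0.0777 to 2.30%). The Hnf4a list of day 30 did likewise, with 5 lost peaks and 1 kept one. Dense blocks, chains of 10 or more peaks from all 8 lists, also held 5 lost peaks (3.85%). They held 14 gained peaks (0.461%) and 1 kept peak of each day as well. The chromosome 9 chain of 9 gained peaks named above is such a block, with 1 Foxa3 day 30 peak. Of the 5 lost peaks in blocks, 4 lay at the start of chromosome 9 (3000026 to 3038273), beside 92 Foxa3 day 2 and 74 Hnf4a day 30 peaks. The remaining 1 lay on chromosome 2 (98502420 to 98507457), beside 7 and 9 such peaks. Whether these are the 5 lost peaks counted for each list was not tested, so those counts do not show sharing outside the blocks. Neither of these 2 blocks with lost peaks held a kept or gained Foxa1 peak. No Foxa1 peak of any class overlapped the Hnf4a list of day 2, which has 10 peaks.

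**Figure D5:**
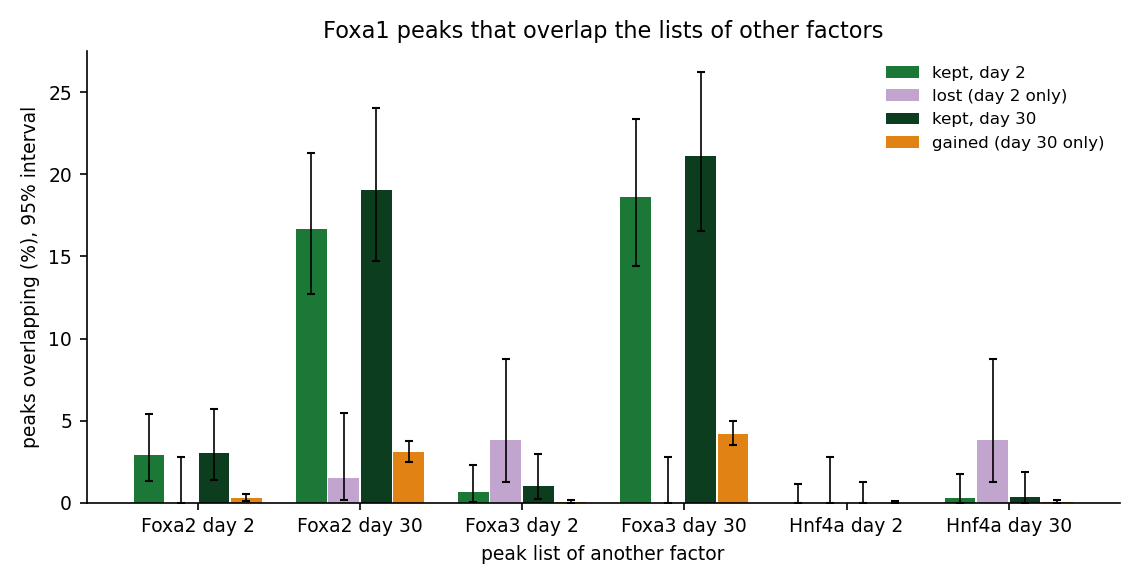
Share of Foxa1 peaks of each class (vertical axis, percent, bars from 0 with exact 95% intervals that cover counting error only) that overlap each peak list of another factor (horizontal axis). Kept peaks of either day reach 16.7 to 21.1% in the late Foxa2 and Foxa3 lists, against 3.10 and 4.18% for gained and 1.54 and 0% for lost peaks. Lost peaks lead only in the Foxa3 day 2 and Hnf4a day 30 lists, with 5 peaks in each. Dense blocks also hold 5 lost peaks, and 14 gained ones.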

How the data were processed

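ChIP-seq peak lists of Foxa1 on day 2 and day 30 were compared, with the lists of the other factors as a reference, 8 lists in all from 16 samples. Per the submitters' processing notes, build mm9 was used with the tools bedtools 2.16.2, BWA 0.6.2 and MACS2 2.1.0, whose roles and order are not given. The peak threshold and the use of the inputs are not given in the sources used here. Each list has 5 columns without a header. The authors deposited a score per peak, which was taken to be a −log10 p because all scores exceed 5 and many repeat like steps of a discrete tail. Starts were read as 0-based and are printed 1-based. Read depth is unknown.

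Python 3.11.15, NumPy 2.4.6, SciPy 1.17.1 and Matplotlib 3.10.9 were used. Overlap means 1 bp or more. Chains join peaks over gaps of up to 20 kb. Overlap, distance and chain functions were tested on simulated lists. No random placement and no test over peaks was made. Regions named are the 3 highest-scoring and 3 widest peaks of each class, the 3 lost peaks nearest to a day 30 peak, and the largest chains, with ties; the dense blocks were named after their values were seen. The comparison, classes and lists were chosen with earlier results of these data known. Planned counts of genes, start sites and forkhead motifs were not run, since the reference tables are of another build. Alternatives were a stricter score threshold (10.16), overlap of 50% of the shorter peak, centres within 500 bp, a day 30 list cut to 442 peaks by score, merging within 500 bp, leaving out dense blocks, and chain gaps of 5 and 100 kb.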

Additional observations from a re-analysis of the deposited data

How the results depend on the processing

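A value counts as moved when it left the 95% interval of its main value. Of 140 values recomputed under the alternatives, 86 stayed within that interval, among them all 22 without dense blocks. Kept peaks stayed wider than lost and than gained ones, and more often in a late Foxa2 or Foxa3 list, under all 6 alternatives to the overlap, the threshold and the lists.

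At the stricter score threshold, 75% of day 2 and 5.18% of day 30 peaks were kept. In the order kept on day 2, lost, kept on day 30 and gained, median widths were 104.5, 91, 205 and 133.5 bp, median spacings 5886, 4491, 132.7 and 185.3 kb, shares in chains 7.29, 9.38, 22.3 and 20.03%, and shares in a late Foxa2 or Foxa3 list 42.7, 0, 44.7 and 13.5%. Kept minus lost turned to 1395 kb for spacing and to -2.08 points for chains; the cause was not tested. An overlap of 50% of the shorter peak left 66.1% of day 2 peaks kept. With centres within 500 bp, 11.4% of day 30 peaks were kept, with a median width of 163 bp, a spacing of 16.9 kb, 52.0% in chains and 26.5% in a late list, and 31.3% of gained peaks were in chains. With the day 30 list reduced to 442 peaks, which took 12 of 51 peaks tied at its last score by position, 39.1% of day 2 and 35.7% of day 30 peaks were kept. The kept and gained peaks of day 30 then had widths of 231 and 172 bp, spacings of 1122 and 1537 kb, 3.16 and 3.87% in chains, a difference that turned to -0.709 points, and 52.5 and 31.3% in a late list; kept day 2 peaks had 46.8% there, and 0% of kept peaks of either day were on chromosome X. With peaks within 500 bp merged, the shares in chains were 4.45, 9.17, 21.3 and 19.6%, and kept minus lost turned to -4.71 points. Spacing was 1157 kb for kept day 2 peaks and 124.2 and 124.4 kb for kept and gained day 30 peaks, with widths of 212 and 119 bp. Chains over gaps of up to 5 kb held 10% of lost, 31.0% of kept day 30 and 24.2% of gained peaks, and over 100 kb they held 25.3, 23.8, 57.8 and 54.6% of the classes.

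With 1 sample per day there was no replicate to leave out. No paired analysis was possible because each day has 1 Foxa1 ChIP sample and no result comes from a test. Unknown depth limits every lost and gained call.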
